A study of Saccharomyces cerevisiae with 2 samples.

Results

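The ribosomal DNA (rDNA) of budding yeast is a long array of near-identical repeats on chromosome XII, of which the reference genome carries 2 as RDN37-1 and RDN37-2. The members described here are the listed target cytosines of chrXII:450501-470001 (sacCer3), a stretch of 19501 bp that holds both repeats and their flanks. They were chosen by position, and not by their values. In CCMT-treated nuclei 178 of the 2039 CC cytosines of the stretch were listed (8.73%), out of 904140 listed cytosines in the library. In GCMT-treated nuclei 150 of 1866 GC cytosines were listed (8.04%), out of 840645. Both libraries came from formaldehyde-fixed nuclei of the wild-type laboratory strain S288C, grown in YPD at 30 °C and opened with Zymolyase and the detergent NP40. Their DNA was converted with bisulfite and sequenced as tPBAT libraries. The methyltransferase GCMT (M.CviPI) modifies the cytosine of GC dinucleotides, and CCMT, a shortened form of M.CviQIX, modifies the 5′ cytosine of CC dinucleotides. A methylation level is the percentage of reads at a cytosine in which it was methylated, and cytosines that nucleosomes or bound proteins cover are methylated less. There was 1 library per enzyme, so no test between conditions was possible, and enzyme and library cannot be told apart. Intervals given are exact binomial 95% intervals that cover counting error only. In a pooled level a read counts at each cytosine it covers, so intervals of pooled levels are too narrow.

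Each repeat holds the 35S precursor gene, transcribed by RNA polymerase I, and the 5S gene, transcribed by RNA polymerase III. The 35S transcript is cut into the 18S, 5.8S and 25S rRNAs (RDN18, RDN58 and RDN25), and its external and internal spacers (ETS and ITS) are removed. Between the genes lie 2 non-transcribed spacers. NTS2 lies between the start of the 35S gene and the 5S gene, and holds the 35S promoter and a replication origin. NTS1 separates the 5S gene from the 3′ end of the 35S gene and is known for the replication fork barrier bound by Fob1, and the genome annotation describes it as needed for expansion of the repeats. Only part of the repeats of a cell are transcribed by RNA polymerase I at a time. All repeats of the array share the reference copies, so a level here is an average over repeats as well as over cells.

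The DNA that the results turn on is shown first, on the top strand, which is the strand of the 5S RNA, with each listed target cytosine of that strand in capitals. The 5S gene, at chrXII:459676-459796, is shown because it is the only rRNA gene read at depth. The other runs are the stretches of NTS1 where the levels were high, at chrXII:460176-460246 (380 to 450 bp after the 5S gene) and chrXII:460496-460646 (700 to 850 bp after it, and 216 to 66 bp from the end of the 35S gene).
RDN5-1: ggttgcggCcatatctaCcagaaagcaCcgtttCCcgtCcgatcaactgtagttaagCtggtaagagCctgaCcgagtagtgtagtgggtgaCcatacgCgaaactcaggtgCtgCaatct
Middle stretch of NTS1-2: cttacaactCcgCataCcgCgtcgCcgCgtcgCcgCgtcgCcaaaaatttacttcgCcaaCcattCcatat
35S-proximal stretch of NTS1-2: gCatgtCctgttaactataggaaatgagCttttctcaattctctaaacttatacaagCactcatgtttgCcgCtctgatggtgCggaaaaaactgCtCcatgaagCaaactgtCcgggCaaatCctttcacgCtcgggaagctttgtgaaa
The middle stretch contains a run of 26 bp that repeats itself with a period of 8 bp, ccgcgtcgccgcgtcgccgcgtcgcc at chrXII:460192-460217.

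The listed cytosines were very unevenly placed. None of the 762 CC and none of the 700 GC cytosines of RDN37-1 was listed, nor any GC cytosine of RDN37-2. The RDN37-2 unit had 1 listed CC cytosine, at chrXII:460746 in its 3′ external spacer (ETS2-2), with 31 reads and a level of 35.5% (19.2 to 54.6%). The 35S coding parts (RDN18, RDN58, RDN25 and the internal spacers) therefore have no value in either library, and a spacer cannot be set against them. TAR1, which lies antisense to RDN25-1, and YLR154C-G, within RDN25-2, are without values for the same reason. The 2 reference repeats are identical over 8375 bp (chrXII:451418-459792 and chrXII:460555-468929), and no 75-bp window of either 35S unit occurs only once in the genome. The 762 bp between these copies, chrXII:459793-460554, occur once, and all target cytosines of NTS1 within them were listed in both libraries. How the mapping treated reads that fit several places is not given in the sources used here, and its part in the missing values was not tested.

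The 5S gene and the spacer after it were the deepest nuclear DNA of both libraries. In CCMT-treated nuclei the mean depth over the region was 1016 reads per cytosine, 32.1 times the nuclear mean of 31.6. In GCMT-treated nuclei it was 661 reads, 50.6 times the nuclear mean of 13.1. The spacer copy between RDN5-1 and RDN37-2, called NTS1-2 here, had a mean of 2075 reads in CCMT-treated nuclei (65.6 times the nuclear mean) and 1191 in GCMT-treated nuclei (91.1 times). The region held 68 CC and 54 GC cytosines with more than 1000 reads, and outside it no nuclear cytosine passed 361 reads in CCMT-treated or 187 in GCMT-treated nuclei. These ratios depend on how many repeats were stacked on 1 reference copy and on the placing of reads, and they are no estimate of the repeat number. Depth also differed between the strands, with a median of 3908 reads on the bottom strand and 1843 on the top strand of NTS1-2 in CCMT-treated nuclei.

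**Figure D1:**
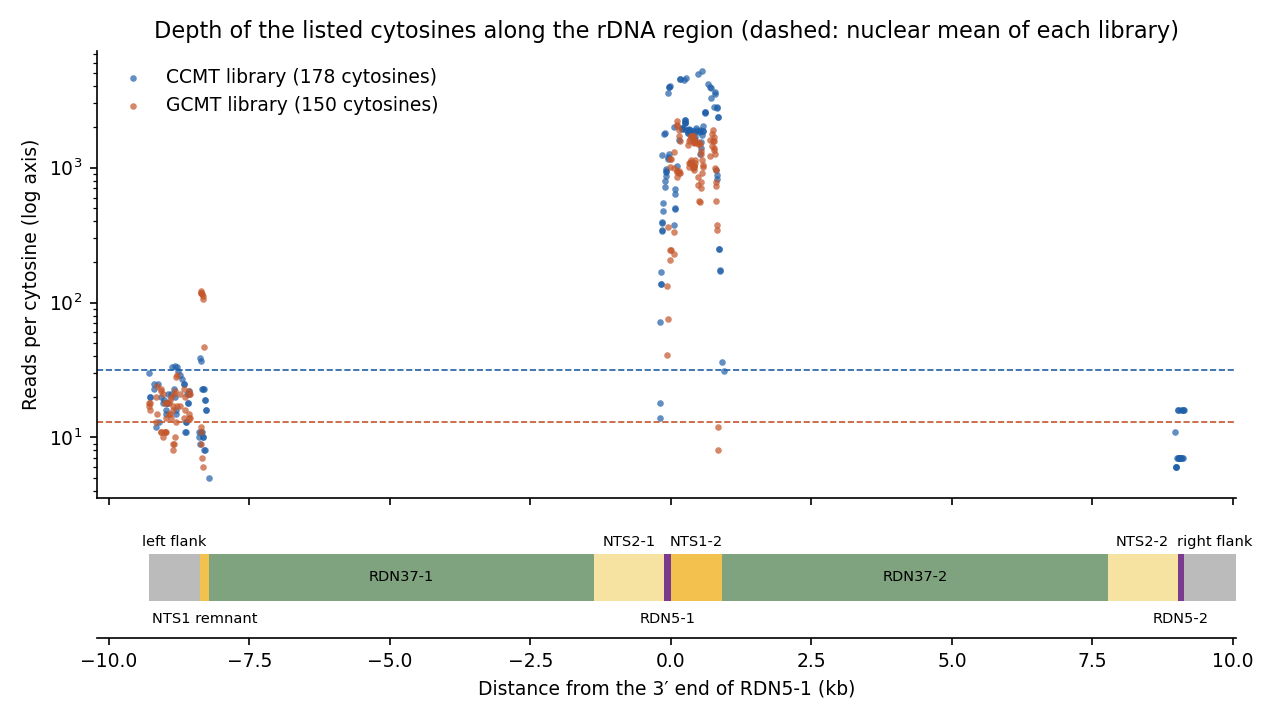
Reads per listed cytosine (log axis) against the distance from the 3′ end of RDN5-1 in kb, for the CCMT library (178 cytosines, blue) and the GCMT library (150 cytosines, orange). Dashed lines give the nuclear mean of each library, and the bars below mark the parts of the region. The listed cytosines form a deep block over RDN5-1 and NTS1-2, a shallow block at the left flank and, in the CCMT library, a few at RDN5-2, with the 35S units empty apart from 1 cytosine.

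At this depth most single cytosines of NTS1-2 had narrow counting intervals, but the shallowest had 36 reads in CCMT-treated and 8 in GCMT-treated nuclei. How duplicate reads were handled is not known. Over NTS1-2 the mean level was 17.9% (SD 9.12 points over all 71 CC cytosines) in CCMT-treated nuclei and 18.5% (SD 12.4 points over 78 of 84 GC cytosines) in GCMT-treated nuclei. The nuclear means were 9.71 and 10.1%. Cytosines in the same sequence contexts (the base before and the base after the target dinucleotide) averaged 9.998 and 10.4% over the nuclear chromosomes. NTS1-2 was thus 1.85 and 1.83 times the nuclear mean. Nuclear DNA outside annotated genes had means of 15.6 and 16.4%, and the bodies of nuclear protein-coding genes 8.34 and 8.48%.

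The spacer was not uniform, and the stretches below were set after its values were seen. The first 300 bp after the 5S gene stood near the nuclear mean, with 10.6% in CCMT-treated nuclei (SD 2.56 points, 24 cytosines) and 8.79% in GCMT-treated nuclei (SD 4.28 points, 16 cytosines). The middle stretch reached 25.3% in CCMT-treated nuclei (SD 1.29 points, 8 cytosines). Its 8 CC cytosines, all on the top strand, lay between 23.6 and 28.1% with 1588 to 1954 reads each, including those of the 8-bp repeats. In GCMT-treated nuclei the same stretch had 18.6% (SD 5.97 points, 16 cytosines), with 19.8% on the top and 17.4% on the bottom strand. Its sequence contexts had 14.02% genome-wide. The corresponding context value for CCMT was 9.80%. The middle stretch therefore exceeded its context value in both libraries, by a wider margin in the CCMT library. A trough from 470 to 530 bp after the 5S gene followed, at 11.2 and 11.0%.

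The highest levels lay at the 35S-proximal end. From 700 to 850 bp after the 5S gene the mean was 30.2% in CCMT-treated nuclei (SD 8.90 points, 13 cytosines) and 31.5% in GCMT-treated nuclei (SD 15.8 points, 20 cytosines), 3.11 and 3.13 times the nuclear means. In CCMT-treated nuclei the cytosine at chrXII:460609 had a level of 42.3% (39.0 to 45.6%, 885 reads). In GCMT-treated nuclei the cytosine at chrXII:460600 had 53.5% (49.3 to 57.7%, 561 reads). These were the highest levels of NTS1-2 in each library. Both lie past chrXII:460554, where the DNA that occurs once ends, and the part of read placing was not tested. Before that end the CC cytosines of this stretch, at chrXII:460496, 460502 and 460516, had 17.8, 18.9 and 25.05%. The middle stretch had a mean of 25.3%. The CCMT ranking of this stretch above the middle one therefore rests on DNA with 2 reference copies. The GC cytosines of this stretch before that end ranged from 8.99 to 48.3%. The lowest CCMT level of NTS1-2 was 4.22% (3.65 to 4.84%, 4529 reads), at chrXII:459953 within the first 300 bp. Cytosines of 1 spacer thus spanned a wide range of levels with intervals far apart.

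**Figure D2:**
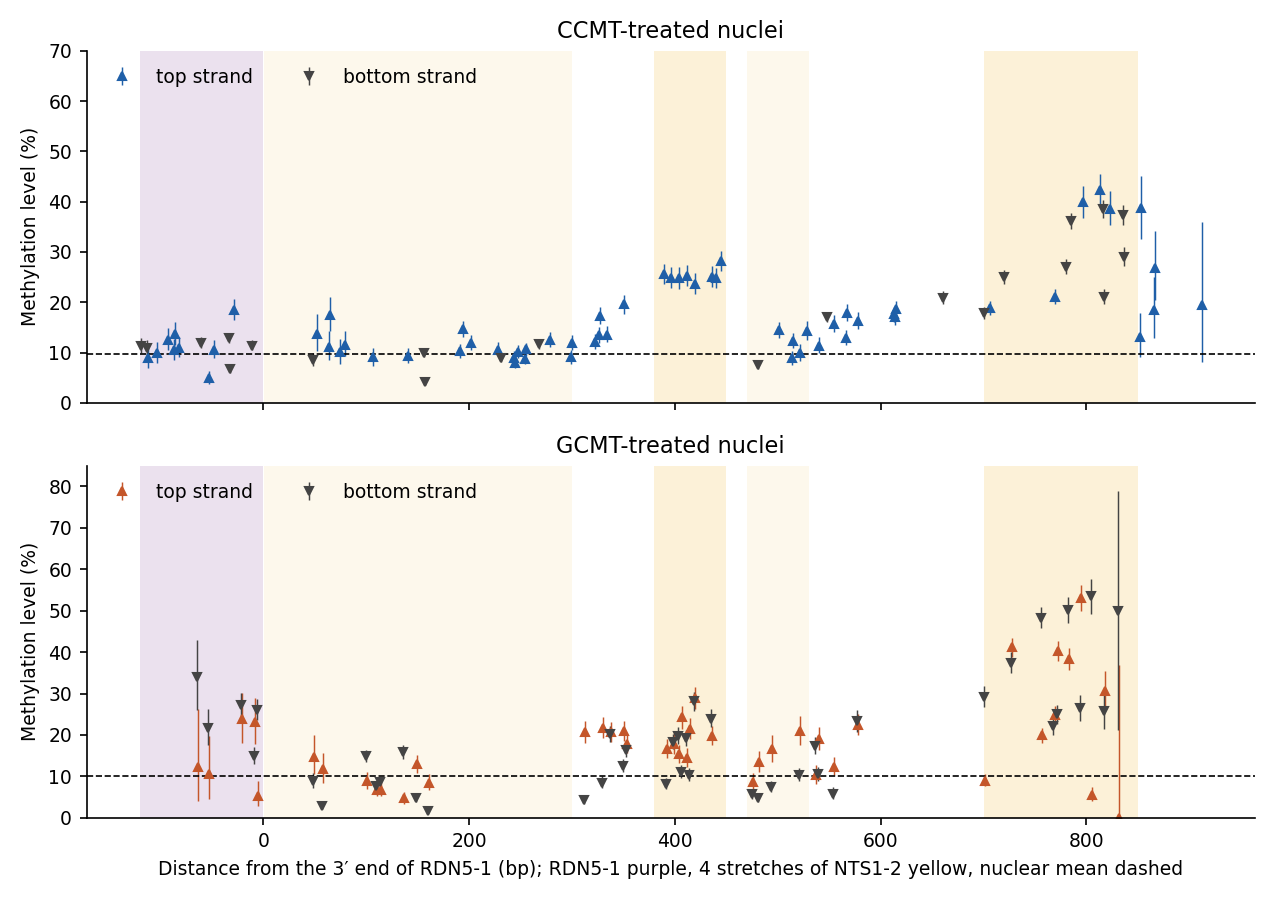
Methylation level of each listed cytosine (%) with its exact binomial 95% interval, against the distance in bp from the 3′ end of RDN5-1, for CCMT-treated nuclei (upper panel) and GCMT-treated nuclei (lower panel). Upward triangles are top-strand and downward triangles bottom-strand cytosines, the dashed line is the nuclear mean, purple marks RDN5-1 and yellow the 4 stretches of NTS1-2. In both panels the levels stay near the dashed line after the 5S gene and reach their highest values from 700 to 850 bp. In the upper panel the top-strand cytosines of the middle stretch form a plateau near 25.3%.

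The windows of 50 bp counted from the 35S start, with both copies pooled, hold reads already described above and are no second measurement. Of the 15 windows with 10 or more reads in both libraries, 12 start in NTS1-2, so lists of windows fall largely there. The 5 that ranked highest by the worse of their ranks were all in NTS1-2. The window chrXII:460583-460632 had pooled levels of 34.2% (33.3 to 35.1%) in CCMT-treated and 32.9% (31.5 to 34.4%) in GCMT-treated nuclei. The adjoining window chrXII:460533-460582 had 28.6 and 32.5%, and chrXII:460483-460532 had 20.7 and 29.3%. The others were chrXII:460183-460232, at 24.9 and 18.3%, and chrXII:460133-460182, at 19.6 and 17.7%. The 5 lowest also lay in NTS1-2. The window chrXII:459933-459982 was lowest in both libraries, at 7.43% (6.94 to 7.94%) and 5.83% (5.26 to 6.45%). Of the others, chrXII:459833-459882 had 10.9 and 6.96%, chrXII:459883-459932 had 9.06 and 10.7%, chrXII:460083-460132 had 13.0 and 12.5%, and chrXII:460283-460332 had 11.98 and 13.0%. Across the 12 windows that start in NTS1-2 the pooled levels of the 2 libraries had a Pearson r of 0.886 (Spearman rho 0.902), and across all 15 an r of 0.594 (rho 0.504). Windows of one spacer are not independent replicates, and both libraries share the reference copy. The other 3 windows lie over the 5S gene and its end, and in each of them the GCMT level was above the CCMT level. One of them, chrXII:459683-459732, had the highest GCMT level of the 15, 34.1% (26.1 to 42.8%), against 11.2% for CCMT. That GCMT level rests on 1 cytosine with 132 reads.

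At GCC the same cytosine is a target of both enzymes. The region held 14 such cytosines with 100 or more reads in both libraries. Their mean level was 17.7% in CCMT-treated and 19.1% in GCMT-treated nuclei, and the GCMT level was higher at 9 of the 14. Their levels had a Pearson r of 0.472 (rho 0.327).

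A window was called high when its pooled level was at least 2 times the nuclear level in both libraries (19.1% for CCMT and 20.8% for GCMT), with windows tiled from the chromosome start. Over the nuclear chromosomes 5.48% of 186474 windows were high. In the region 4 of 30 windows were high, 2 of 14 in NTS1-2, 2 of 14 at the left flank with the adjoining spacer remnant, and none of the 2 over the 5S gene. Of the left ones, chrXII:451451-451500 lies within the remnant, and chrXII:451401-451450 spans its start at chrXII:451418. The latter also holds CC cytosines of the unique flank, which add to its CCMT level. None further left was high. The remnant repeats the sequence of NTS1-2 from chrXII:460555, so the 4 windows are not 4 separate sequences. The high windows of NTS1-2 were chrXII:460501-460550, at 22.2 and 39.5%, and chrXII:460551-460600, at 29.6 and 34.5%. The latter stood above 97.1% of nuclear windows in CCMT-treated nuclei and 97.2% in GCMT-treated nuclei. Windows at or below 0.5 times the nuclear level in both libraries made up 8.71% of the nuclear windows and 1 of the 30.

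The 5S gene RDN5-1 was close to the nuclear mean with CCMT and above it with GCMT. All its 15 CC cytosines were listed, with 716 to 4027 reads, and had a mean level of 11.1% (SD 3.05 points, pooled 11.0%, 10.6 to 11.3%). The lowest was 5.02% (3.83 to 6.44%, 1156 reads) at chrXII:459743 and the highest 18.5% (16.4 to 20.8%, 1270 reads) at chrXII:459768. Of 16 GC cytosines 10 were listed, with 41 to 1167 reads, and had a mean of 19.9% (SD 8.86 points, pooled 21.7%, 20.6 to 22.96%). All of these lie at chrXII:459732-459791, so the 5′ part of the gene has no GCMT value. The GCMT and CCMT means of the gene thus cover unlike parts of it. Its GC cytosines had 24.9% on the bottom strand and 14.98% on the top strand, which had at most 244 reads. Every listed cytosine of the gene lies before chrXII:459793, in DNA with 2 reference copies, and the part of read placing was not tested.

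Most tRNA genes, which RNA polymerase III also transcribes, had higher levels in the same libraries. The nuclear tRNA genes had means of 22.2% in CCMT-treated and 33.8% in GCMT-treated nuclei. Of the tRNA genes with at least 3 listed cytosines, 6 of 273 stood at or below RDN5-1 in CCMT-treated nuclei and 8 of 261 in GCMT-treated nuclei. The GCMT count sets only the 3′ part of RDN5-1 against cytosines listed anywhere in the tRNA genes. SCR1, the RNA of the signal recognition particle, had 29.7 and 30.5%. RPR1, the RNA of RNase P, had 27.6 and 35.1%, and SNR6, the U6 spliceosomal RNA, had 24.4 and 21.7%. The gene SNR52, a guide RNA for rRNA methylation, had 4.09% over 3 cytosines and 29.1% over 4. The 5S variant RDN5-6, outside the region, had 10.4% over 15 CC cytosines and 27.6% over 6 GC cytosines with 59 reads. RDN5-3, RDN5-4 and RDN5-5 had no listed cytosine. The 5S gene is an average over many repeats, which the tRNA genes and the other genes named here are not.

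**Figure D3:**
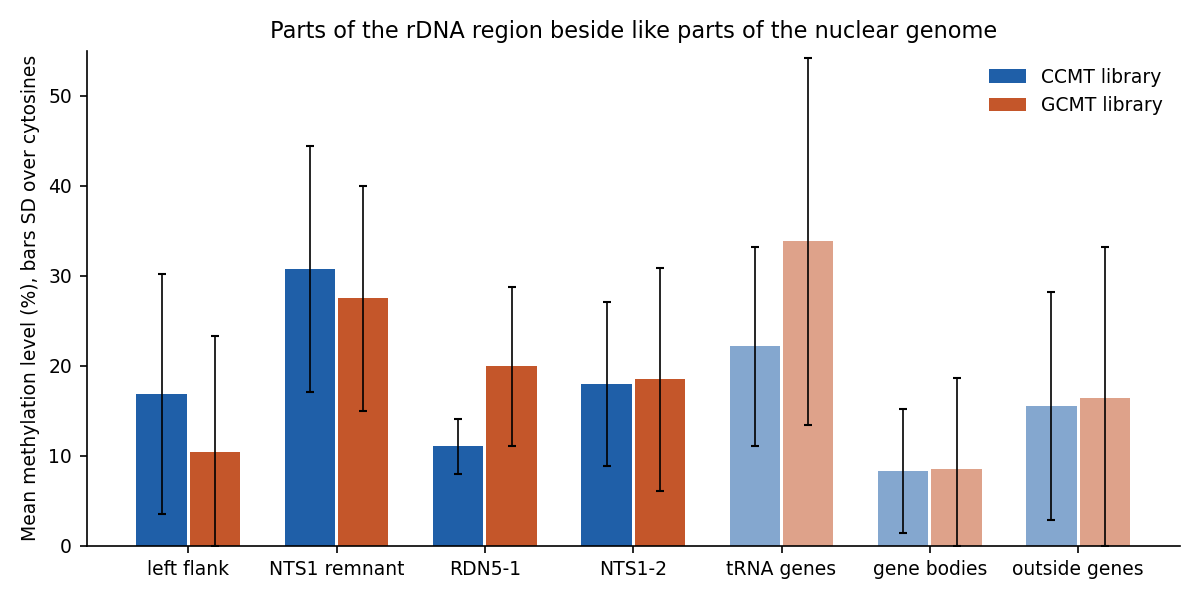
Mean methylation level (%) of the listed cytosines in 4 parts of the rDNA region and, in paler bars, in the nuclear tRNA genes, the bodies of protein-coding genes and DNA outside genes, for the CCMT library (blue) and the GCMT library (orange). Error bars are the SD over cytosines, cut at 0 from below. RDN5-1 is at 11.1 and 19.9%, below the tRNA genes at 22.2 and 33.8%, and the NTS1 remnant has the highest CCMT mean, 30.7%. The GCMT value of RDN5-1 covers only the 3′ part of the gene.

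The second 5S gene of the reference, RDN5-2, is shorter (119 bp against 121 bp) and overlaps the gene YLR154C-H. It was listed with CCMT only, at 19.7% over 15 cytosines with 7 to 16 reads (pooled 17.6%, 12.03 to 24.4%). At the 20 CC cytosines of the 5S end listed in both copies the pooled level was 16.9% (11.9 to 22.9%, 195 reads) in the right copy and 11.2% (10.8 to 11.5%, 31022 reads) in the left copy. No cytosine of the right copy had more than 16 reads, so its 195 counts hold the same reads many times. The pooled intervals are therefore too narrow, and their gap of less than 1 point decides nothing. At single cytosines the intervals of the copies overlapped at all 20. Which repeats of the array gave the few reads of the right copy cannot be told. NTS2, which carries the 35S promoter and the origin ARS1200, was read only at the 5S end. There 13 of 133 CC cytosines of NTS2-1 had a mean of 12.8% with 14 to 1237 reads, 5 of 133 of NTS2-2 had 13.6% with 6 to 11 reads, and no GC cytosine of either was listed. No target of the right flank, 90 CC and 116 GC cytosines at the asparaginase gene ASP3-1, was listed, and this DNA too has no 75-bp window that occurs once.

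The array begins on the left with a remnant of NTS1, 157 bp at chrXII:451418-451574, that is identical to the 35S-proximal end of NTS1-2. It repeated the high levels of that end, although it was read at 5 to 121 reads per cytosine. Its mean level was 30.7% in CCMT-treated nuclei (SD 13.7 points, all 15 CC cytosines) and 27.5% in GCMT-treated nuclei (SD 12.5 points, 12 of 20 GC cytosines). Pooled over the 15 CC cytosines listed in both copies, the level was 32.6% (26.7 to 39.0%) in the remnant and 30.9% (30.4 to 31.5%) in NTS1-2, with overlapping intervals. Over 12 GC cytosines it was 29.0% (25.9 to 32.3%) in the remnant and 33.0% (32.2 to 33.9%) in NTS1-2, whose intervals overlap by less than 1 point. All these pooled intervals are too narrow, since a read counts at each cytosine it covers.

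At single cytosines of the remnant and NTS1-2 the intervals overlapped at all 15 CC and all 12 GC cytosines listed in both, but with few reads in the remnant these intervals are wide. The levels differed by a median of 7.91 points (at most 17.9) for CC and 6.98 points (at most 28.0) for GC. The GCMT library had 6 top-strand cytosines of the remnant with more than 100 reads. At chrXII:451454 the level was 49.6% against 53.1% at the matching chrXII:460591. At chrXII:451464 it was 5.36% against 5.49% at chrXII:460601, a cytosine 10 bp further on. The other 4 had 23.1, 33.1, 39.3 and 26.2% in the remnant against 24.9, 40.3, 38.3 and 30.6% in NTS1-2, and at each of the 6 the intervals of the copies overlapped. Because the copies are identical, reads of other repeats may have been placed on the remnant, and its part was not tested. In the GCMT library its top-strand cytosines had 47 to 121 reads and its bottom-strand cytosines 6 to 12.

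The unique DNA left of the array, chrXII:450501-451417, was listed in full, at a median of 20 reads for 43 CC and 17 for 50 GC cytosines. Its mean level was 16.8% in CCMT-treated nuclei (SD 13.3 points) and 10.5% in GCMT-treated nuclei (SD 12.9 points). The part within the replication origin ARS1216 had 17.4% over 9 CC and 21.2% over 12 GC cytosines. Between the origin and chrXII:451230 the levels were 12.7% over 30 and 7.04% over 38 cytosines. The next 172 bp hold no target of either enzyme and are 11.6% G and C, so neither library can report on them. From chrXII:451403 to the 35S gene the levels were 34.1% over 19 CC cytosines and 27.5% over 12 GC cytosines. The 4 CC cytosines of this edge that lie before the repeat itself had levels from 25.6 to 66.7% on 9 to 39 reads. They enter the CCMT mean of the flank and raise it, and GCMT has no target of the flank there. The CCMT and GCMT means of the whole flank thus cover unlike DNA.

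The deep reads also resolved differences between neighbouring cytosines. At 41 GC sites both strands had 100 or more reads, and at 27 of these the intervals of the strands lay apart, with the top strand higher at 17 and the bottom strand higher at 10. The median difference between strands was 8.02 points, and the nuclear levels of their contexts differed by a median of 1.47 points. These are unlike measures, since the second is a difference of nuclear means and is 0 wherever the strands have like contexts. At 30 of the sites the strands were in unlike contexts, and at 22 of these the strand with the higher nuclear context level was the higher here. Of the 11 sites with like contexts, 4 had intervals that lay apart.

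The context TGCT, whose other strand reads AGCA, was picked out after the values were seen, and other pairs of contexts were not ranked. The 3 sites with the largest differences and the site with the lowest levels are shown with TGCT in capitals, named by the distance of the top-strand cytosine after the 5S gene. The sites at 757 and 805 bp are written from the bottom strand.
805 bp: ggacagttTGCTtcatggag
795 bp: gaaaaaacTGCTccatgaag
757 bp: aacatgagTGCTtgtataag
161 bp: cattgggtTGCTactacttg
At 805 bp the TGCT cytosine had 53.5% (561 reads) and the AGCA cytosine of the same site 5.49% (729 reads), a ratio of 9.75. At 795 bp the levels were 53.1 and 26.4%, and at 757 bp 48.3 and 19.9%. At 161 bp, within the low stretch after the 5S gene, they were 8.51 and 1.72%. The TGCT cytosine was higher at all 9 such sites with 100 or more reads on both strands, 8 in NTS1-2 and 1 in RDN5-1, and the intervals lay apart at each. Their means were 27.5 and 9.48%, a ratio of 2.90. Over the nuclear chromosomes outside the region the means were 12.3 and 5.10% at 90910 such sites, a ratio of 2.41. There the TGCT cytosine was higher at 61.2%, at much lower depth, so the count of 9 is not to be read against that share as a difference of the rDNA.

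In CCMT-treated nuclei the neighbours within a run of CCC differed in a like manner. The region held 19 pairs of neighbouring target cytosines with 100 or more reads each, and the level of the second cytosine was higher in 16. The intervals lay apart in 10 pairs, and in all 10 the second was higher. The means were 12.5% for the 5′ cytosine and 18.0% for the next. At chrXII:460648 the 5′ cytosine had 13.1% (251 reads) and its neighbour at chrXII:460649 had 38.7% (248 reads). On the bottom strand the cytosine at chrXII:460613 had 21.1% (2777 reads) and the next, at chrXII:460612, 38.5% (2809 reads). Over the nuclear chromosomes outside the region the means were 8.43 and 12.4%, with the second higher in 61.7% of 156292 pairs. Depth there was much lower, so the 16 of 19 is not to be read against that share as a difference of the rDNA.

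**Figure D4:**
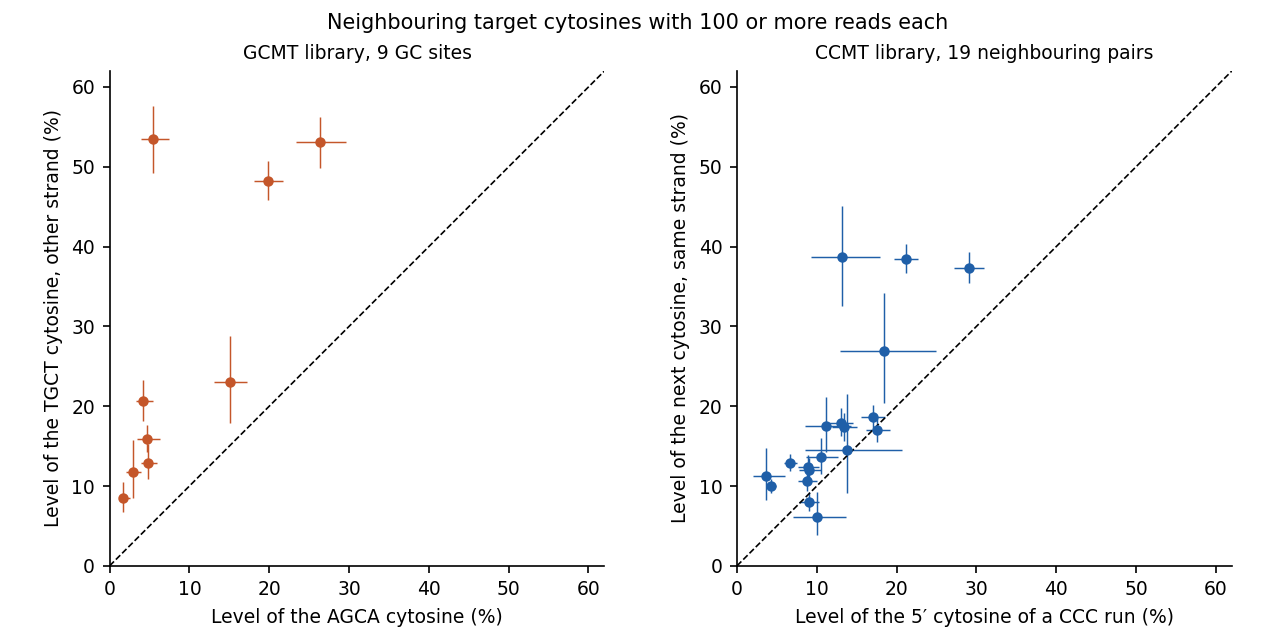
Methylation levels (%) of neighbouring target cytosines with 100 or more reads each and their exact binomial 95% intervals. The left panel sets the TGCT cytosine against the AGCA cytosine of the other strand at 9 GC sites of the GCMT library, and the right panel the next cytosine against the 5′ cytosine in 19 pairs of CCC runs of the CCMT library. The dashed line marks equal levels, and all 9 points on the left and 16 of 19 on the right lie above it.

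The binding protein Reb1 has a consensus of TTACCCG, searched on both strands with matches counted once for each strand. It had 8 matches in the region, which are the same places of the repeat seen in both reference copies. The nuclear chromosomes held 791 matches, and 69.5% of 610 nuclear stretches of the same length held at least 1. No listed cytosine of either library lay within 50 bp of the 8 matches, so accessibility at these letters was not measured.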

How the data were processed

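Nuclei of S288C were fixed, treated with CCMT or GCMT, and sequenced after bisulfite conversion. The labels give 1% formaldehyde and 0.1% NP40, and the methods give other amounts. The sample list of the study names a different sample record for its CCMT nuclei, so the CCMT library used here may not be the one its text describes. Mapping by the authors used BMap, in-house pipelines and the sacCer3 build, and versions, filters and the handling of duplicates and of reads with several places are not given in the sources used here. For each listed cytosine the authors deposited the read count (coverage) and the methylation level as a fraction. Only cytosines with 5 or more reads are listed. Positions, counted from 0 in the files, are given here from 1.

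Methylated reads were recovered as coverage times fraction. Every listed cytosine was checked to be a CC or GC target of the R64 genome (RefSeq), which also gave genes and sequences. Levels of parts are means over cytosines, and pooled levels are methylated reads over all reads, with exact Clopper-Pearson 95% intervals. Pooled reads are summed over cytosines, so a read that covers several cytosines counts at each. Uniqueness was taken from 75-bp windows. The calculations (scipy 1.17.1, pandas 2.3.3 and numpy 2.4.6 under Python 3.11.15) were tested on simulated reads. No p-value is given, as each enzyme had 1 library. Molecular identifiers are not mentioned, so intervals cover counting error only. The named items were the rRNA genes, their parts, the spacers and annotated genes, the 5 highest and 5 lowest windows of 50 bp of the repeat, and the Reb1 matches. The members were set by position, and they, the stretches and the lists were chosen with earlier results of these data known.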

Additional observations from a re-analysis of the deposited data

How the results depend on the processing

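The planned differences of the spacers and of the 5S genes from the 35S units, and their alternatives, were not run, since the 35S units had 0 or 1 listed cytosine. The depth ratio depended on its definition. With medians in place of means it was 8.05 for CCMT and 35.9 for GCMT, and with unlisted targets counted as 0 reads it was 2.93 and 4.38. The 4 high windows became 2 of 18 with windows of 100 bp (5.38% of nuclear windows) and 12 of 30 at 1.5 times the nuclear level (8.64% of nuclear windows). Added after the data were seen, NTS1-2 minus RDN5-1 was 6.89 points for CCMT, 6.26 with pooled reads and 6.35 without GCC cytosines. For GCMT it was -1.42 points and -3.87 with pooled reads. NTS1-2 minus the left flank was 1.10 points for CCMT and -0.22 without GCC cytosines. For GCMT it lay between 7.03 and 8.73 points under all settings run. The CCMT mean of the flank includes shallow cytosines of high level next to the repeat, where GCMT has no target. These CCMT and GCMT differences therefore cover unlike DNA. The causes were not tested. Strand moved the GCMT level of the 35S-proximal stretch most, to 26.3% on the top and 36.8% on the bottom strand. No paired analysis was possible because there was 1 library per enzyme. Depth limits the flanks, RDN5-2 and the remnant, where single levels rest on 5 to 121 reads, and in the 35S units nothing can be said. Near the 35S gene NTS1-2 is shallow too, down to 8 reads at a GC cytosine.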
